A study of Mus musculus with 21 samples.

Results

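The 32 genes described here encode the vacuolar H+-ATPase (V-ATPase), proteins of the lysosome membrane and lumen, and the transcription factors TFEB, TFE3 and MITF. They were chosen by name, as the rows of the RNAseq tables whose gene name is on the list, and are 32 of the 37734 genes counted. The RNAseq was performed on cDCs of C57BL/6 (B6) mice aged 6 to 8 weeks, and each library came from cells pooled from 10 to 15 animals. Thymic and splenic cells were selected with CD11c beads and FACS-sorted into cDC1 (CD24+ CD11b-) and cDC2 (CD24- CD11b+), and were sorted as immature (CCR7- ESAM-) from both tissues and as mature (CCR7+ ESAM+) from the thymus only. Per the labels, B220+ cells were left out of both subsets, and cells with the macrophage marker F4/80 are named as left out in the gate of cDC1 and not in that of cDC2. The authors describe both subsets as negative for F4/80 in their gating by flow cytometry. The 21 libraries were immature splenic cDC1 (SP1Minus, 5 libraries), immature thymic cDC1 (TH1Minus, 4), mature thymic cDC1 (TH1Plus, 3), immature splenic cDC2 (SP2Minus, 3), immature thymic cDC2 (TH2Minus, 3) and mature thymic cDC2 (TH2Plus, 3). Replicates 4 and 5 of SP1Minus shared pool, index and lane and their counts differed far less than those of any other pair of that group, so their mean was used as 1 sample, which left 20 samples. This sample and replicate 1 of SP1Minus have the same number in their labels, as do replicates 3 and 4 of TH1Minus, so that each group of 4 samples holds 3 such numbers.

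The V-ATPase is a rotary proton pump. Its V1 sector, which hydrolyzes ATP, sits on the cytosolic face of the membrane, and its V0 sector, which carries protons, lies within it. The a subunit of V0 exists in several isoforms that are known to direct the pump to different membranes. In dendritic cells the acidity of endosomes and lysosomes sets the activity of the proteases that cut antigens. TFEB, TFE3 and MITF are basic helix-loop-helix leucine zipper factors of the MiT/TFE family that are known to bind E-box sequences in the promoters of many lysosomal genes, and TFEB is held in the cytosol when mTORC1 phosphorylates it at the lysosome surface.

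Between 14266867 and 40119669 reads were recovered per library. The deposited values are normalized read counts, that is, the reads of a gene divided by 1 size factor per library, and intervals or floors taken from them cover counting error only. The sort was visible in the genes that were used for it. Ccr7 averaged 110227 in TH1Plus and 99928 in TH2Plus. Among immature groups it averaged 434 in SP1Minus and 714 in TH1Minus, and more in cDC2, at 3783 in SP2Minus and 3419 in TH2Minus. Esam averaged 1205 in TH1Plus and 975 in TH2Plus against 7.93 to 67.6 in the 4 immature groups. The summed level of 4 cDC1 markers (Xcr1, Clec9a, Irf8, Batf3) was 39786 to 85688 in the cDC1 samples and 2371 to 22189 in the cDC2 samples. That of 4 cDC2 markers (Sirpa, Irf4, Cd209a, Itgam) was 13915 to 45021 in the cDC2 samples and 321 to 3604 in the cDC1 samples, with Itgam and Cd209a below 10 in every TH1Plus sample. The cDC1 sum was mostly Irf8 in TH1Plus (mean 34273) and TH2Plus (13787). Batf3 overlapped between these groups, at 4509 to 5683 and 3243 to 5405. Xcr1 averaged 19098 in TH1Minus, 440 in TH1Plus and 18.9 in TH2Plus, and Clec9a 6967, 1208 and 36.0. Transcripts used as markers of other cells moved with the groups, and which cells they came from was not tested. The sum of 9 macrophage markers was 153 to 1759 in the cDC1 samples and 15404 to 25231 in the immature cDC2 samples. In TH2Plus that sum was 17543 and 18471 in replicates 1 and 2 and 2835 in replicate 3. Csf1r had the highest mean of the 9 in each of the 4 immature groups but not in the mature ones, and Vsig4 was at 0 in every sample. In SP2Minus most of the sum was Csf1r (mean 14582) and Adgre1 (4534), and the next highest was C1qb at 443. The sum of 6 T lineage markers was 3.69 to 61.3 in spleen, 86.5 to 164 in immature thymic samples and 521 to 973 in mature ones, with Ptcra below 10 throughout. The sum of 5 thymic epithelial markers was 40.4 to 152 in spleen, 575 to 705 in TH1Minus, 3487 to 3816 in TH2Minus and 254 to 1010 in the mature groups. Most of it in the immature groups was Epcam, which dendritic cells can also express, and Foxn1 was at most 25.3 in any sample. Krt5 averaged at most 0.305 in a splenic group, 22.1 in TH1Minus, 32.5 in TH2Minus, 98.6 in TH1Plus and 175 in TH2Plus. Krt8 averaged at most 42.1 in an immature group, 94.4 in TH1Plus and 180 in TH2Plus. Psmb11 averaged 108 in TH2Plus and at most 13.04 in any other group. In 1 bulk sample, fewer cells of a type and less RNA per cell cannot be told apart. Replicate 3 of SP1Minus, replicate 2 of SP2Minus and replicate 3 of TH2Plus stood farthest from their groups, and both mature groups were sequenced only in lane 8, whereas the immature groups were spread over lanes 5 and 8.

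The promoter windows of these genes were searched for the 6-base E-box CACGTG, which reads the same on both strands, because this is the core that MiT/TFE factors are known to bind. RefSeq windows of 300 bases (250 before to 50 after the start site, build GRCm38.p6) were at hand for 25 of the 32 genes, 33 windows in all. CACGTG occurred in 9 of the 33 windows (27.3%), each of another gene, against 7.15% of all 32851 RefSeq windows. The longer motif TCACGTG, which is CACGTG with 1 more base and was counted on either strand, occurred in 8 of the 33 windows (24.2%) against 3.77% of all windows. A match is a string of letters in a window and was not tested as a binding site. Lamp1 had 4 copies, Atp6v0b, Gla and Mcoln1 had 2 each, and Atp6v0d1, Atp6v0e, Atp6v1a, Gaa and Mcoln2 had 1 each. The windows of 4 of these 9 genes are shown 5′ to 3′ in the direction of transcription, with each CACGTG in capitals. They are those of Lamp1, which had most copies, and of Mcoln1, Gaa and Gla. The other windows are not shown, among them that of the channel gene Mcoln2, which was lower in mature cells.
Lamp1 chr8:13158911-13159210, plus strand: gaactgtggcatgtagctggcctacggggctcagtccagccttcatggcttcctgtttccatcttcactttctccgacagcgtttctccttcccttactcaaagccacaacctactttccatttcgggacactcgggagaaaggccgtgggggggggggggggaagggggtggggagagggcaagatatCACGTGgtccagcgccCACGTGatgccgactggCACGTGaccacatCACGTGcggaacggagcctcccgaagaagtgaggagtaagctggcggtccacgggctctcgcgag
Mcoln1 chr8:3500269-3500568, plus strand: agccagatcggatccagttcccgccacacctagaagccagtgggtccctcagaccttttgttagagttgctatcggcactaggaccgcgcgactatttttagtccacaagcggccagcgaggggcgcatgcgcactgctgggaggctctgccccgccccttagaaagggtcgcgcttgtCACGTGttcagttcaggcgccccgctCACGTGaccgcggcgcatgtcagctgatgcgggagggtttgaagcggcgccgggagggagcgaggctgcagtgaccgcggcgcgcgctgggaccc
Gaa chr11:119267713-119268012, plus strand: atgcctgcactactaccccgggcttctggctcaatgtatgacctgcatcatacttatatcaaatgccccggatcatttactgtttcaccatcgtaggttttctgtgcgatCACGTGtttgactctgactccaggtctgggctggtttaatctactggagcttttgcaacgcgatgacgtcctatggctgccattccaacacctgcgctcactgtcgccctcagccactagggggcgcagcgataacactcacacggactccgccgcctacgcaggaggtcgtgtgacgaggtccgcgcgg
Gla chrX:134600956-134601255, minus strand: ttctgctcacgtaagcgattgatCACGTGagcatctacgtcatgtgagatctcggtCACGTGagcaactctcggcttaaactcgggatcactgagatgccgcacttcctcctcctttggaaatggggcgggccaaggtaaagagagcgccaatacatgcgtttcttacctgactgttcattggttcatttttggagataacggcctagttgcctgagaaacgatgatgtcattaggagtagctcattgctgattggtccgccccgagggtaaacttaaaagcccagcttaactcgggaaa

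**Figure D1:**
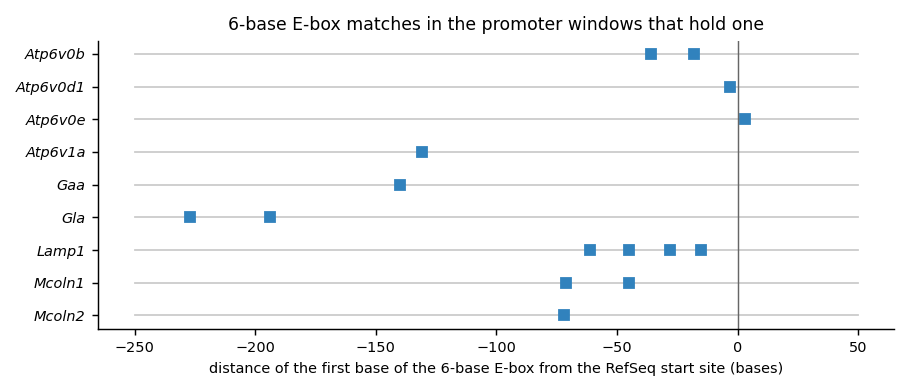
Distance in bases of each 6-base E-box from the RefSeq start site, for the 9 genes whose window holds one; each line spans the window from 250 bases before to 50 after the start and each square is 1 match. The 4 matches of Lamp1 lie between 61 and 15 bases before the start, whereas those of Gla begin 227 and 194 bases before it.

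Levels of different genes are compared per kilobase of exon, as normalized reads per kb. On this scale Psap, which encodes prosaposin, the precursor of the saposins that activate sphingolipid hydrolases, was the highest of the 32 genes in all 6 groups, at 100871 in TH1Minus and 19536 in TH2Plus. It took up 1.19% ± 0.11 (SD, n = 4) of all normalized reads in TH1Minus and 1.11% ± 0.18 (n = 4) in SP1Minus. Lamp1 was the second in 4 groups, with 1938 in SP2Minus, 2497 in TH2Minus, 12964 in TH1Plus and 14852 in TH2Plus, but was at 874 in SP1Minus and 499 in TH1Minus. Of the V-ATPase genes, Atp6v1g1 and Atp6v1f, which encode small stalk subunits, were the highest in the immature groups, at 1555 to 2424 normalized reads per kb. Atp6v0d2, Lamp3 and Mcoln2 were at most 57.5 normalized reads per kb in any group and had at most 93, 286 and 289 reads in a library.

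The first comparison asked how these genes differ between mature and immature thymic cDCs. In cDC1, 8 of the 32 genes rose and 6 fell, and in cDC2, 5 rose and 2 fell, where a call needed an adjusted p under 0.1 in limma and a difference of more than 2-fold, or 1 on the log2(value + 1) scale. Over all 14970 genes tested, 21.3% were called higher and 24.5% lower in mature cDC1, and 18.6% higher and 17% lower in mature cDC2, so that the count of these genes was near or under the background in each direction. The median log2 difference over the 32 genes was 0.35 in cDC1 and 0.10 in cDC2, against -0.04 and 0.04 over all genes tested. Atp6v0a1, Atp6v0e, Lamp1, Lamp3 and Gaa rose, and Atp6v0a2 and Mcoln2 fell, in both subsets. The 7 other calls in cDC1 were Atp6v0c, Atp6v1b2 and Gla, which rose, and Hexa, Psap, Tfeb and Tpcn2, which fell. Their difference between cDC2 groups had the same sign and did not pass the call. The libraries are pools that the labels list as separate samples, and the p-values rest on the spread between samples within groups, shared over all groups of the fit. Some samples of SP1Minus and TH1Minus have the same number in their labels, so that part of this spread may lie within 1 pool.

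**Figure D2:**
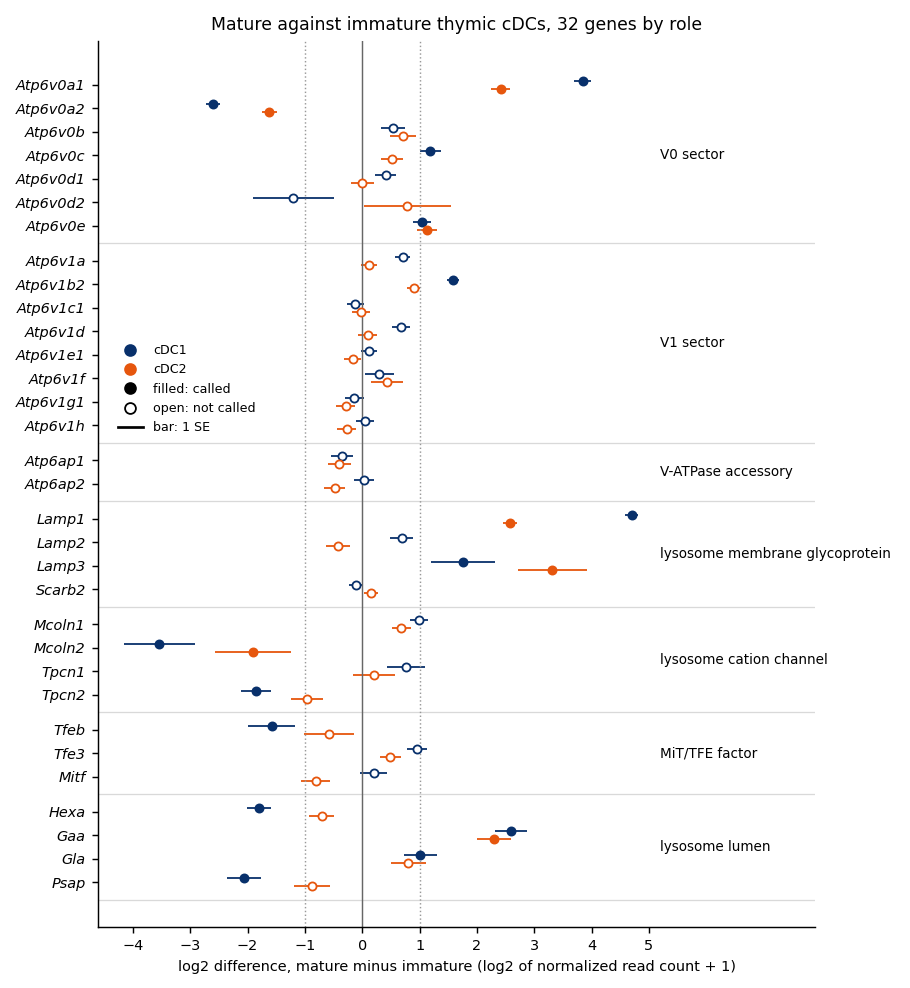
Log2 difference between mature and immature thymic cells for the 32 genes, grouped by role, in cDC1 (blue) and cDC2 (orange); points are limma estimates on the log2(value + 1) scale, bars are 1 SE, and filled points are called. Lamp1 and Atp6v0a1 lie far to the right in both subsets, Atp6v0a2 and Mcoln2 lie to the left in both, and most V1 points lie between the dotted lines at -1 and 1.

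Within the V0 sector the a subunit genes moved in opposite directions. Atp6v0a1 (chr11:101009452-101063719, build GRCm38) encodes the a1 isoform. It stood at 667, 645, 502 and 487 normalized reads in TH1Minus and at 7591, 7932 and 9103 in TH1Plus. In cDC2 it was at 1359, 1384 and 1188 in TH2Minus and at 7220, 6770 and 6951 in TH2Plus. All mature samples lay above all immature ones, and the log2 difference was 3.84 (SE 0.15, adjusted p = 3.22e-14) in cDC1 and 2.42 (SE 0.16, adjusted p = 2.58e-10) in cDC2.

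Atp6v0a2 (chr5:124628576-124724455), which encodes the a2 isoform, showed the reverse order. It was at 11398, 10969, 8983 and 10586 in TH1Minus and at 1696, 1598 and 1898 in TH1Plus. Its levels in cDC2 were 4859, 5089 and 4575 in TH2Minus and at 1575, 1609 and 1541 in TH2Plus. The groups did not overlap, and the gene fell by 2.596 (SE 0.12, adjusted p = 3.54e-13) in cDC1 and by 1.62 (SE 0.13, adjusted p = 2.73e-09) in cDC2 on the log2 scale. Its exons overlap those of a gene on the other strand, and the strand setting of the counting was not given, so that reads of the 2 genes may not have been told apart.

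Tcirg1, which encodes the a3 isoform and is not on the list of 32, fell by 2.19 (SE 0.26, adjusted p = 3.13e-07) in cDC1, from a mean of 4134 in TH1Minus to 927 in TH1Plus. Atp6v0a4 had 0 reads in every library. Per kilobase of exon, Atp6v0a1 made up 3.44% ± 0.35 (SD, n = 4) of the reads of the a subunit genes in TH1Minus and 73.2% ± 1.29 (n = 3) in TH1Plus. In cDC2 its share was 10.8% ± 0.28 (n = 3) in TH2Minus and 62.1% ± 6.00 (n = 3) in TH2Plus. Atp6v0a2 held 61.2% ± 1.66 in TH1Minus and 15.1% ± 1.07 in TH1Plus. The shares describe mRNA only, and their sum is fixed at 100, so that the shares of the isoforms are not independent.

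**Figure D3:**
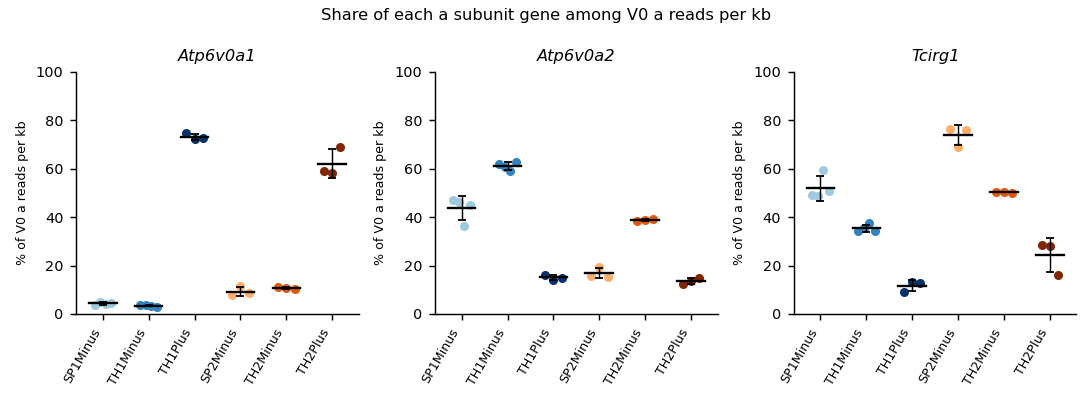
Share of Atp6v0a1, Atp6v0a2 and Tcirg1 in the normalized reads per kb of the a subunit genes, in percent, for every sample (points) of the 6 groups, with the mean and 1 SD. Atp6v0a1 is at most 11.4% in the immature samples and at least 58.3% in the mature ones.

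The other V0 genes moved less. Atp6v0e, a small membrane subunit, was at 2304 to 3169 in TH1Minus and 4798 to 6764 in TH1Plus, and at 2007 to 2752 in TH2Minus and 4303 to 6037 in TH2Plus. The groups did not overlap in either subset, and its log2 difference was 1.04 (SE 0.16, adjusted p = 1.40e-05) in cDC1 and 1.12 (SE 0.17, adjusted p = 2.04e-05) in cDC2. These values are close to the 2-fold limit, and the call was lost in cDC1 without TH1Plus replicate 3 (0.88) or TH1Minus replicate 4 (0.97) and in cDC2 without TH2Minus replicate 1 (0.98). Atp6v0c, which encodes the proteolipid of the proton-carrying ring, was at 730 to 960 in TH1Minus and 1816 to 2012 in TH1Plus (1.19, SE 0.18, adjusted p = 9.71e-06). In cDC2 it was at 1361 to 1713 in TH2Minus and 2116 to 2611 in TH2Plus (0.52, adjusted p = 0.0306) and was not called. Atp6v0b, another proteolipid gene, differed by 0.54 and 0.71 in the 2 subsets (adjusted p = 0.0314 and 0.0127), under the fold limit. Atp6v0d1, the d subunit present in most cells, made up on average 98.5% or more of the d subunit reads per kb in each group.

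Of the 8 V1 genes, 1 was called. Atp6v1b2, which encodes the B2 subunit that forms part of the ATP-binding sites, was at 3348, 3426, 3704 and 3093 in TH1Minus and at 9908, 9592 and 11094 in TH1Plus. It was 1.59 higher on the log2 scale (SE 0.11, adjusted p = 8.53e-11). The cDC2 groups stood at 3427, 3654 and 3970 in TH2Minus and at 6597, 7085 and 6895 in TH2Plus, a difference of 0.90 (SE 0.11, adjusted p = 1.64e-06) that did not reach 2-fold. The difference between the subsets was -0.69 (SE 0.16, adjusted p = 0.00549), which passed the p limit and not the fold limit. Atp6v1a, which encodes the catalytic A subunit, was at 1776 to 2317 in TH1Minus and 3156 to 3810 in TH1Plus (0.71, adjusted p = 1.15e-04), and in cDC2 at 2523 to 3012 and 2636 to 3238. Atp6v1d, a central stalk subunit, differed by 0.68 in cDC1 (adjusted p = 7.48e-04). The 5 others, Atp6v1c1, Atp6v1e1, Atp6v1f, Atp6v1g1 and Atp6v1h, did not pass the p limit in either subset. The accessory genes Atp6ap1 and Atp6ap2, whose products help to assemble the pump, were not called in any comparison.

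Among the membrane glycoproteins, Lamp1 (chr8:13159161-13175338), one of the most abundant proteins of the lysosome membrane, showed the largest difference of the 32 genes in cDC1. It was at 1380, 1372, 1348 and 1234 in TH1Minus and at 32802, 32664 and 38569 in TH1Plus. In cDC2 it was at 6600, 6550 and 6886 in TH2Minus and at 39979, 38626 and 40581 in TH2Plus. The mature groups stood at similar levels whereas the immature cDC1 group was the lowest of all 6. The log2 difference was 4.70 (SE 0.12, adjusted p = 5.01e-17) in cDC1 and 2.57 (SE 0.12, adjusted p = 2.51e-12) in cDC2. The difference between the subsets was -2.12 (cDC2 minus cDC1, SE 0.17, adjusted p = 9.07e-08). Exons of Lamp1 overlap those of Grtp1 on the other strand.

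Lamp2, which encodes the other major lysosome membrane glycoprotein, did not follow Lamp1. It was at 1698 to 2430 in TH1Minus and 2894 to 4468 in TH1Plus (0.69, adjusted p = 0.00533), and at 4055 to 4656 in TH2Minus and 3098 to 3518 in TH2Plus. Neither difference was called, but the difference between them was (-1.11, SE 0.29, adjusted p = 0.0145), a call that was lost without TH1Minus replicate 3 (-0.98) or TH1Plus replicate 3 (-0.93). Per kilobase, Lamp1 made up 68.1% ± 3.71 (n = 4) of the reads of Lamp1, Lamp2 and Lamp3 in TH1Minus and 97.1% ± 0.37 (n = 3) in TH1Plus. Scarb2, which encodes LIMP-2, the receptor that carries glucocerebrosidase to lysosomes, was at 3330 to 3808 in the thymic cDC1 samples and at 2148 to 2661 in the thymic cDC2 samples and was not called. Lamp3, known as DC-LAMP and as a marker of mature dendritic cells in humans, stayed low. It was at 9.3, 3.3, 9.4 and 10.1 in TH1Minus and at 53.5, 17.3 and 22.4 in TH1Plus, and at 23.5, 6.0 and 9.3 in TH2Minus and 79.8, 94.7 and 224 in TH2Plus. It was called higher in both subsets (1.76, SE 0.56, adjusted p = 0.0110 and 3.31, SE 0.60, adjusted p = 1.19e-04), from 4 to 29 reads per library in thymic cDC1 and 6 to 286 in thymic cDC2.

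The channel genes fell or did not pass. Tpcn2, which encodes a two-pore channel of the lysosome membrane, was at 802, 954, 899 and 602 in TH1Minus and at 133, 256 and 317 in TH1Plus (fell by 1.86, SE 0.26, adjusted p = 3.05e-06). Its cDC2 levels were 600, 670 and 723 in TH2Minus and at 445, 375 and 232 in TH2Plus (-0.97, SE 0.27, adjusted p = 0.00641), just under the fold limit. Mcoln2, which encodes the endosomal channel TRPML2, was at 9.1 to 36.6 in TH1Minus and at 0, 0 and 7.2 in TH1Plus, and at 188, 194 and 185 in TH2Minus and 43.8, 46.6 and 59.6 in TH2Plus. It fell by 3.54 (SE 0.62, adjusted p = 5.57e-05) and 1.91 (SE 0.66, adjusted p = 0.0230), the first of which rests on 0 to 9 reads per library in TH1Plus. The second was lost at a pseudocount of 0.1 (adjusted p = 0.171). Mcoln1, which encodes TRPML1, the main mucolipin of the lysosome, moved the other way without reaching 2-fold: it was at 666 to 752 in TH1Minus and 1257 to 1637 in TH1Plus (0.99, SE 0.16, adjusted p = 1.97e-05). The cDC2 groups were at 970 to 1231 and 1622 to 2133 (0.68, adjusted p = 0.00240).

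The 4 lumen genes split. Gaa (chr11:119267887-119285454), which encodes the acid alpha-glucosidase that degrades glycogen, was at 752, 783, 766 and 538 in TH1Minus and at 3464, 3846 and 5811 in TH1Plus. In cDC2 it was at 892, 893 and 1073 in TH2Minus and at 5901, 5148 and 3347 in TH2Plus. It rose by 2.601 (SE 0.28, adjusted p = 8.98e-08) in cDC1 and 2.30 (SE 0.30, adjusted p = 2.23e-06) in cDC2, without overlap. Gla, which encodes alpha-galactosidase A, was at 436 to 581 in TH1Minus and 842 to 1165 in TH1Plus. Its log2 difference of 1.01 (SE 0.29, adjusted p = 0.00505) was at the fold limit, and it was lost without any one of TH1Minus replicates 2 and 4 and TH1Plus replicates 2 and 3 (0.91 to 0.99).

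Psap and Hexa, by contrast, were lower in mature cells. Psap (chr10:60277627-60302597) was at 273897, 272943, 325625 and 234695 in TH1Minus and at 58134, 55689 and 87240 in TH1Plus. Among cDC2, it was at 95322, 84530 and 101940 in TH2Minus and at 64464, 64781 and 31572 in TH2Plus. It fell by 2.07 (SE 0.29, adjusted p = 4.23e-06) in cDC1, and its difference in cDC2 was -0.88 (SE 0.31, adjusted p = 0.0261). Hexa, which encodes the alpha subunit of beta-hexosaminidase, was at 4608, 5232, 6424 and 4433 in TH1Minus and at 1134, 1416 and 1973 in TH1Plus (fell by 1.80, SE 0.20, adjusted p = 1.99e-07). The cDC2 groups were at 4211 to 4992 and 2070 to 3343 (-0.71, adjusted p = 0.0109). The difference between subsets was 1.19 for Psap (SE 0.43, adjusted p = 0.0761) and 1.09 for Hexa (SE 0.30, adjusted p = 0.0189). The Psap call was lost without any one of 10 of the 13 thymic samples (adjusted p = 0.101 to 0.194), and the Hexa call without TH1Minus replicate 3 or TH1Plus replicate 1 or TH2Plus replicate 1 or 2, at 0.90 to 1.00. Hexa exons overlap those of a gene on the other strand.

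**Figure D4:**
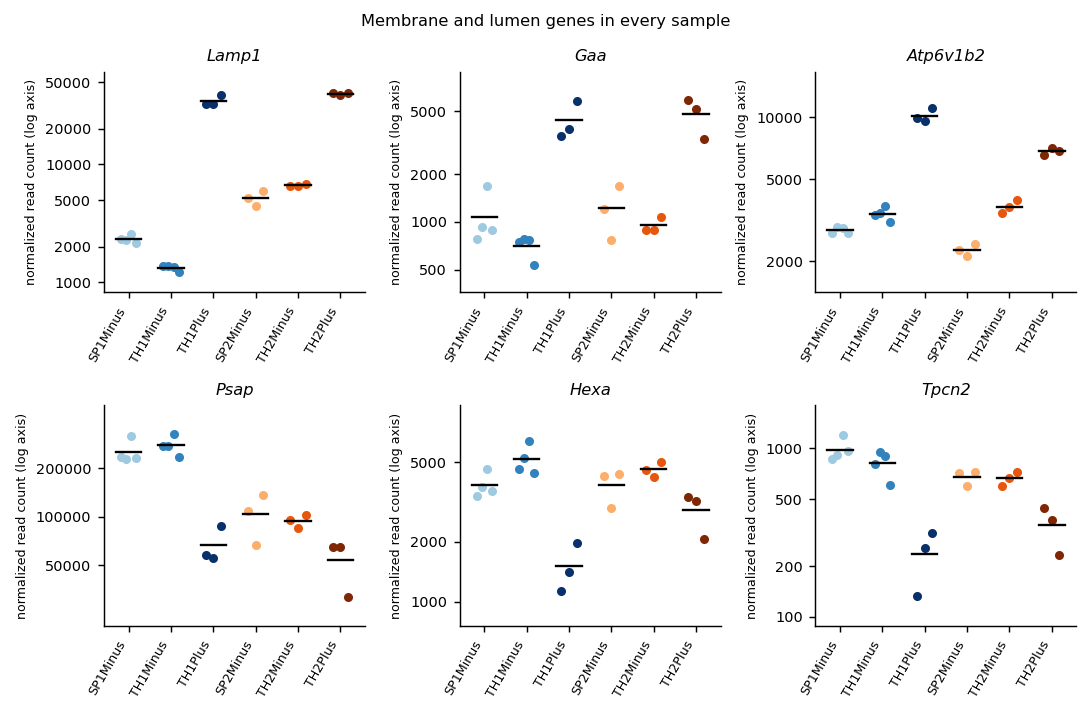
Normalized read count (log axis) of 6 genes in every sample of the 6 groups; points are samples and lines are group means. Lamp1, Gaa and Atp6v1b2 are highest in the mature groups TH1Plus and TH2Plus, and Psap, Hexa and Tpcn2 are lowest in them.

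The factor genes differed from one another. Tfeb (chr17:47737030-47792419) was at 822, 929, 808 and 555 in TH1Minus and at 160, 185 and 560 in TH1Plus, with TH1Plus replicate 3 within the range of TH1Minus. It fell by 1.58 (SE 0.41, adjusted p = 0.00242) in cDC1. In cDC2 it was at 1061, 1039 and 1129 in TH2Minus and at 920, 798 and 506 in TH2Plus and did not pass the p limit. Tfe3 was at 1174 to 1535 in TH1Minus and 2177 to 3516 in TH1Plus (0.96, SE 0.17, adjusted p = 7.29e-05), and at 1812 to 2097 and 2498 to 2897 in the cDC2 groups (0.49, adjusted p = 0.0347), and was not called. Mitf was at 98.8 to 120 in TH1Minus and 109 to 141 in TH1Plus, and at 452 to 566 in TH2Minus and 246 to 391 in TH2Plus (-0.81, adjusted p = 0.0117). The difference between subsets was called for Mitf (-1.01, SE 0.34, adjusted p = 0.0602), but it lay at the fold limit and was lost without any one of 8 samples (-0.999 to -0.89). Per kilobase, Tfeb made up 44.0% ± 2.95 (n = 4) of the reads of the 4 MiT/TFE genes (Tfec included) in TH1Minus and 13.1% ± 5.90 (n = 3) in TH1Plus, and Tfe3 50.04% ± 1.79 and 81.2% ± 5.58.

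Over the difference of the maturation effects (cDC2 minus cDC1), 2 genes were called higher (Hexa, Psap) and 4 lower (Atp6v0a1, Lamp1, Lamp2, Mitf), against a background of 8.34% higher and 5.25% lower. The median over all genes tested was 0.11 in this contrast and 0.14 with values rescaled by TMM. Atp6v0a1 differed by -1.43 (SE 0.22, adjusted p = 2.09e-04). Of the sorting genes, Ccr7 was called lower in this contrast too (-2.41, SE 0.45, adjusted p = 0.00127 in limma). Esam had the other sign and was not called (1.54, SE 0.75, adjusted p = 0.194 in limma). The part of the sort in the differences between subsets was not tested. Without TH1Minus replicate 3, Hexa, Lamp2, Mitf and Psap lost the call and Atp6v0a2 gained it (1.05), and without TH2Plus replicate 1, Hexa, Mitf and Psap lost it, so that 3 genes were called in each case. Of the 9 genes with CACGTG in their window, 4 rose (Atp6v0e, Gaa, Gla, Lamp1) and 1 fell (Mcoln2) in cDC1, and of the 16 with a window that lacked it, 3 rose and 4 fell. In cDC2 the counts were 3 and 1 of 9, and 2 and 0 of 16. Over all genes tested, 21.3% rose and 24.5% fell in cDC1 and 18.6% rose and 17% fell in cDC2.

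Other genes of the pathway were counted from lists of V-ATPase, lysosome and TFEB signaling genes, beside 21.3% of all genes tested that rose and 24.5% that fell in cDC1, and 18.6% and 17% in cDC2. Of 12 tested V-ATPase subunits and assembly factors outside the 32 (18 listed), 4 rose and 3 fell in cDC1, and 4 rose and 1 fell in cDC2. Dmxl2, a subunit of the rabconnectin complex that assembles the pump, rose from a mean of 3.74 to 41.2 in cDC1 and from 74.3 to 406 in cDC2 (3.34, SE 0.66 and 2.45, SE 0.70). Rogdi, known as a partner in the same complex, rose by 2.69 in cDC2 (SE 0.31), and Ncoa7, which encodes a protein that binds the V-ATPase, rose by 2.85 in cDC1 (SE 0.23) and 1.62 in cDC2 (SE 0.25). Of 29 tested lysosome membrane genes (30 listed), 4 rose and 10 fell in cDC1, and 2 rose and 8 fell in cDC2. Cd63, a tetraspanin of late endosomes, rose from 58.7 to 19539 in cDC1 and from 1230 to 16381 in cDC2 (8.42, SE 0.26 and 3.76, SE 0.28). Laptm4b rose by 3.69 (SE 0.18) and 3.36 (SE 0.20), and Cd68, the glycoprotein macrosialin, fell by 3.95 (SE 0.32) and 2.12 (SE 0.35).

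Among lumen hydrolases and their activators more genes fell than rose in mature cells. Of 27 genes, 3 rose and 11 fell in cDC1, and 3 rose and 8 fell in cDC2, with a median log2 difference of -0.51 and -0.48 against -0.04 and 0.04 over all genes. Ppt1, which encodes a palmitoyl-protein thioesterase, fell by 6.04 (SE 0.19) in cDC1, from a mean of 71803 to 1134, and Gm2a, the GM2 activator that works with beta-hexosaminidase, fell by 4.24 (SE 0.24) in cDC1 and 3.43 (SE 0.26) in cDC2. Arsb, arylsulfatase B, fell by 4.13 (SE 0.15) and 2.41 (SE 0.16). Of 20 genes of TFEB signaling, 5 rose and 4 fell in cDC1, and 4 rose and 4 fell in cDC2. Rragd, a Rag GTPase that recruits mTORC1 to lysosomes, rose from 10.2 to 960 in cDC1 and from 30.4 to 337 in cDC2 (6.62, SE 0.66 and 3.52, SE 0.71). Tsc1, which encodes hamartin, an inhibitor of mTORC1 signaling, rose by 1.90 (SE 0.14) and 1.83 (SE 0.15). Ppargc1a, a transcription coactivator, was near the detection limit, at a mean of 1.52 in TH1Minus and 11.2 in TH1Plus, and its rise of 2.01 in cDC1 (SE 0.86, adjusted p = 0.0502) was lost without any one of 4 samples. In cDC2 it rose by 4.25 (SE 0.91). All of these named genes had an adjusted p under 0.1 in limma.

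The second comparison asked how immature thymic cells differ from immature splenic cells of the same subset. Few of the 32 genes were called. In cDC1, 1 was higher and 1 lower in thymus, against a background of 4.26% and 4.52% of all genes, and in cDC2, 3 were higher and 3 lower against 8.3% and 5.87%. The immature thymic groups also serve as the reference of the maturation comparisons.

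Tpcn1, which encodes the other two-pore channel, was lower in thymus in both subsets. It was at 361, 470, 690 and 415 in SP1Minus and at 65.9, 55.0, 46.8 and 76.8 in TH1Minus. The same order held in cDC2, at 1115, 771 and 1652 in SP2Minus and at 137, 170 and 115 in TH2Minus. The lowest splenic sample was above every thymic one, and the gene fell by 2.95 (SE 0.31, adjusted p = 9.00e-07) in cDC1 and by 3.01 (SE 0.36, adjusted p = 3.61e-06) in cDC2. It stayed at 65.6 to 218 in the mature groups. Its share of the reads per kb of Tpcn1 and Tpcn2 was 23.1% ± 2.69 (n = 4) in SP1Minus and 4.70% ± 1.91 (n = 4) in TH1Minus, and 50.9% ± 7.22 (n = 3) in SP2Minus and 11.7% ± 2.38 (n = 3) in TH2Minus.

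Atp6v0d2, the d2 isoform that is best known from osteoclasts, had 0 reads in all 5 SP1Minus libraries and 9.4 to 16.1 normalized reads (6 to 19 reads) in TH1Minus. With a floor of 3 reads in each library, TH1Minus was at least 4.15-fold higher. In cDC2 there were 2 reads in the 3 SP2Minus libraries and 93 in TH2Minus, a ratio of 50.1 with an exact 95% counting interval of 13.5 to 419. The gene was called in both subsets (adjusted p = 3.63e-04 and 2.79e-04 in limma), but it averaged at most 1.47% of the d subunit reads per kb in any group. No splenic sample reached the minimum level required for testing. The gene was therefore admitted to the test by thymic samples only, immature and mature, and the p-values do not allow for this. In lane 8 alone the cDC2 call was lost (adjusted p = 0.113).

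In cDC2, 4 more genes were called. Mcoln2 was at 32.03, 41.2 and 17.9 in SP2Minus and at 188, 194 and 185 in TH2Minus (2.67, SE 0.66, adjusted p = 0.00630). Mitf was at 243, 229 and 217 in SP2Minus and at 522, 566 and 452 in TH2Minus (1.15, SE 0.25, adjusted p = 0.00228). Gla was at 5665, 3325 and 4556 in SP2Minus and at 1058, 1525 and 1431 in TH2Minus (fell by 1.74, SE 0.31, adjusted p = 3.36e-04). In all 3 genes the groups were apart. Tfeb was at 2684, 1279 and 3846 in SP2Minus and at 1061, 1039 and 1129 in TH2Minus. It fell by 1.13 (SE 0.44, adjusted p = 0.0739), and the adjusted p was over 0.1 without any one of 5 of the 6 samples of the 2 groups (0.141 to 0.313). Between the same groups, the summed macrophage markers overlapped, at 15404 to 25231 in SP2Minus and 18911 to 24376 in TH2Minus, but some single markers did not. Adgre1, which encodes F4/80, was at 4192 to 4923 in SP2Minus and 1777 to 2039 in TH2Minus, whereas C1qa was at 251 to 444 and 1614 to 2797, and Timd4 at 45.8 to 56.9 and 531 to 898. The sum of 5 pDC markers was 3269 to 3960 in SP2Minus and 10538 to 12121 in TH2Minus, and 3350 to 3874 in SP1Minus and 5174 to 5962 in TH1Minus. Its members did not move alike. From SP1Minus to TH1Minus the mean of Bst2 went from 904 to 3019, Siglech from 301 to 414, Ccr9 from 897 to 933, Ly6d from 7.37 to 12.3, and Tcf4 from 1478 down to 1228. From SP2Minus to TH2Minus all 5 were higher, and most of the sum was Tcf4 (2486 and 5899) and Bst2 (907 and 3834). The thymic epithelial sum moved with the tissue in both subsets too, and the part of these markers in the differences was not tested.

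In cDC1 the same genes had other values. Mcoln2 was at 18.5 to 43.4 in SP1Minus and 9.1 to 36.6 in TH1Minus, and Mitf at 91.4 to 178 and 98.8 to 120. Gla was at 1831, 767, 929 and 647 in SP1Minus and at 436 to 581 in TH1Minus (-0.94, SE 0.27, adjusted p = 0.0218). Lamp1 was lower in thymic than splenic cDC1 (2174 to 2560 in SP1Minus, -0.81, SE 0.11, adjusted p = 1.81e-05) and higher in thymic than splenic cDC2 (4438 to 5949 in SP2Minus, 0.38, SE 0.12, adjusted p = 0.0375). Neither difference reached 2-fold. The difference of the tissue effects (cDC2 minus cDC1) was called higher for Lamp1 (1.18, SE 0.17, adjusted p = 1.29e-04), Mcoln2 (3.13, SE 0.88, adjusted p = 0.0439) and Mitf (1.35, SE 0.33, adjusted p = 0.0186), and for 0 lower, against a background of 3.27% and 1.71%. The count of 0 was also 0 at an unadjusted p under 0.05 in limma and 0 in edgeR and DESeq2. The Mcoln2 call was lost without TH2Minus replicate 3 (adjusted p = 0.1004) or SP2Minus replicate 3 (adjusted p = 0.138). In the lane 8 libraries alone, where SP2Minus has 1 library, the adjusted p was 0.1003 for Lamp1, 0.313 for Mcoln2 and 0.586 for Mitf. Atp6v0a2 was higher in thymus in both subsets without reaching 2-fold (0.60, adjusted p = 6.81e-04 and 0.93, adjusted p = 2.19e-05).

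**Figure D5:**
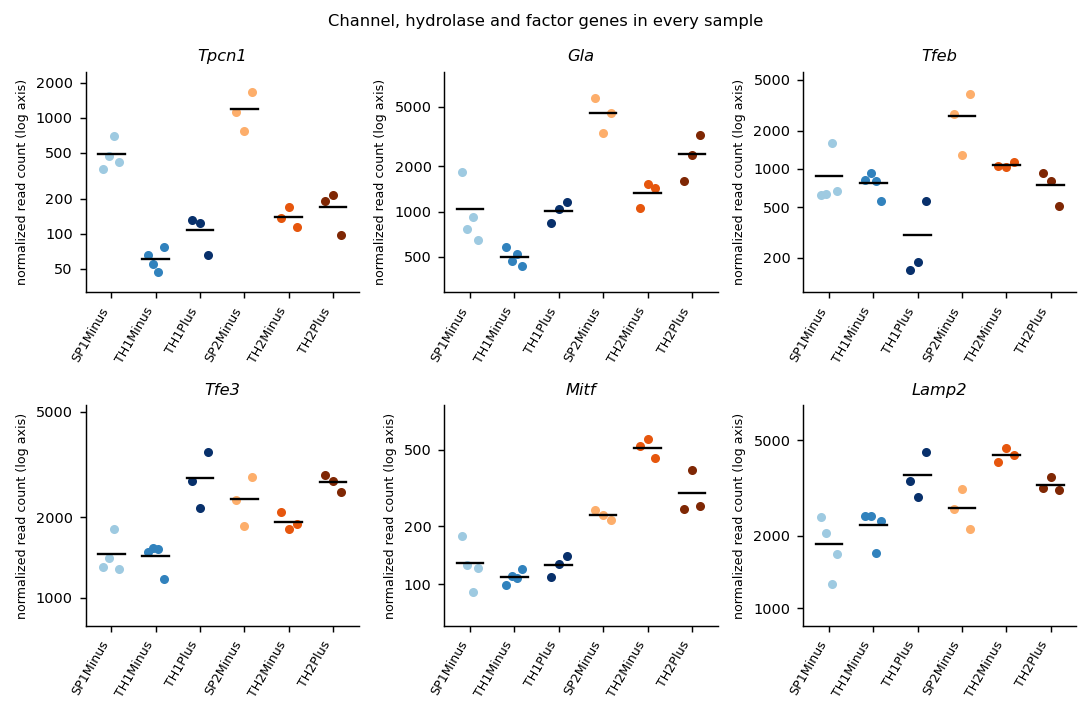
Normalized read count (log axis) of 6 genes in every sample of the 6 groups; points are samples and lines are group means. Tpcn1 is lower in all thymic groups than in the splenic group of its subset, Gla is highest in SP2Minus, and Mitf is highest in TH2Minus.

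The third comparison was that of cDC2 with cDC1 within a tissue and stage. In spleen, 5 of the 32 genes were higher in cDC2 and 2 lower, against 9.93% and 6.7% of all genes. In immature thymic cells 6 were higher and 2 lower, against 11% and 5.42%. In mature thymic cells 6 were higher and 0 lower, against 14.6% and 4.36%. The count of 0 in limma was 4 at an unadjusted p under 0.05 with no fold limit, and 0 in edgeR and DESeq2. The median over all genes tested was 0.14 in the last contrast (0.16 with TMM). The 3 contrasts share no samples.

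Gla was higher in cDC2 in all 3 contrasts. Its log2 difference was 2.20 (SE 0.29, adjusted p = 6.01e-06) in spleen, 1.40 (SE 0.29, adjusted p = 9.90e-04) in immature thymic cells and 1.20 (SE 0.31, adjusted p = 0.00752) in mature ones, where TH1Plus was at 842 to 1165 and TH2Plus at 1589 to 3256. The last value was 0.95 without TH2Plus replicate 3 and then not called. Lamp1 was higher in immature cDC2 in spleen (1.14, SE 0.12, adjusted p = 2.18e-07) and in thymus (2.32, SE 0.12, adjusted p = 9.17e-12), whereas TH1Plus and TH2Plus were at 32664 to 38569 and 38626 to 40581. Tpcn1 was higher in immature cDC2 in both tissues (1.26, adjusted p = 0.00803 and 1.20, adjusted p = 0.0124). The spleen call for Tpcn1 was lost without SP2Minus replicate 3 (0.98).

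Lower in immature cDC2 of both tissues were Atp6v0a2 and Psap. In mature thymic cells neither was called, and the groups overlapped (cDC2 over cDC1 ratios of means 0.91 and 0.80). Atp6v0a2 was at 7016, 6806, 7078 and 6628 in SP1Minus and at 2532, 2160 and 2964 in SP2Minus (fell by 1.44, SE 0.12, adjusted p = 1.20e-08), and in thymus it fell by 1.11 (SE 0.12, adjusted p = 5.61e-07). Psap was at 234565, 227565, 314088 and 231197 in SP1Minus and at 108883, 67088 and 135821 in SP2Minus (fell by 1.32, SE 0.29, adjusted p = 0.00179). Without SP1Minus replicate 3, SP2Minus replicate 2 and TH2Plus replicate 3 this difference was -0.93 and was not called. In thymus Psap fell by 1.55 (SE 0.29, adjusted p = 4.23e-04). Atp6v0a1 was higher in immature thymic cDC2 (1.20, SE 0.15, adjusted p = 4.17e-06), and in spleen its difference of 1.00 (adjusted p = 3.71e-05) fell just short of the fold limit.

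The factor genes Tfeb and Mitf were higher in cDC2 in some of the contrasts. Tfeb was at 618, 631, 1597 and 673 in SP1Minus and at 2684, 1279 and 3846 in SP2Minus, so that the groups overlapped, and it was 1.55 higher in cDC2 (SE 0.41, adjusted p = 0.00727). In mature cells it was 1.49 higher in cDC2 (SE 0.44, adjusted p = 0.0173), with an overlap between 160 to 560 in TH1Plus and 506 to 920 in TH2Plus. The mature call was lost when only the groups compared were fitted (adjusted p = 0.104 in limma). Mitf was higher in thymic cDC2, by 2.22 (SE 0.23, adjusted p = 4.09e-07) in immature and 1.21 (SE 0.25, adjusted p = 0.00134) in mature cells, and in spleen by 0.86 (adjusted p = 0.00910). Mcoln2 was higher in thymic cDC2 at both stages (3.02, SE 0.62, adjusted p = 9.97e-04 and 4.65, SE 0.66, adjusted p = 3.41e-05). In mature cells it averaged 0.73 normalized reads per kb in TH1Plus, near the detection limit, and 15.2 in TH2Plus, so that the size of 4.65 depends on the pseudocount. Atp6v0c was higher in splenic cDC2 (1.22, SE 0.18, adjusted p = 2.64e-05), and Lamp3 (2.07, SE 0.60, adjusted p = 0.0160) and Atp6v0d2 (adjusted p = 0.00351) in mature cDC2. Atp6v0d2 was low, at 0 to 19.2 normalized reads in TH1Plus and 47.6 to 64.7 in TH2Plus. Its call was lost when only the groups compared were fitted (3.27, adjusted p = 0.112 in limma). The macrophage marker sum moved with every one of these contrasts, since it was at most 1759 in any cDC1 sample and at least 2835 in any cDC2 sample, and its part in them was not tested. Adgre1 was at most 142 in the cDC1 samples, in whose gate F4/80+ cells are named as left out, and at least 516 in the cDC2 samples. In TH2Plus replicate 3, in which that sum was lowest, Gla and Lamp3 were the highest of the 3 samples and Tfeb the lowest.

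The 15 genes that were called in none of the 7 comparisons of 2 groups were Atp6ap1, Atp6ap2, Atp6v0b, Atp6v0d1, Lamp2, Mcoln1, Scarb2, Tfe3 and 7 of the 8 V1 genes, that is, all of them but Atp6v1b2. The share of all genes tested that were called in none of the 7 comparisons was not computed. The count of 15 therefore has no background to be read against. The means of the V1 genes other than Atp6v1b2 ranged from 973 to 4240 normalized reads over the 6 groups.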

How the data were processed

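RNAseq was performed on pools of FACS-sorted cDCs with a stranded mRNA kit and paired reads on a HiSeq 3000. After Cutadapt trimming, the authors mapped the reads to mm10 (STAR, 2.6 in the submitters' processing notes), summed them over Ensembl genes (HTSeq-count) and divided each library's counts by its DESeq2 (1.24.0) size factor. The authors deposited these values, a signal with 1 value per gene and library (normalized read count), in 21 tables of 37734 genes. The Ensembl release and the strand setting were not given in the sources used here. Dividing each table by its smallest step gave whole reads for 100% of the values (tolerance 0.02 of a read). SP1Minus replicates 4 and 5 differed by a chi-square of 2.44 per degree of freedom over genes, against 25.0 to 176 for the 9 other pairs of the group, and were averaged. TH1Minus replicates 3 and 4 also share their labels but differed by 92.8 and were kept apart.

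Values were taken as log2(value + 1) and fitted in limma (3.58.1, R 4.3.3) with 1 mean for each of 6 groups over the 20 samples. Contrasts were tested by eBayes, its prior variance following the mean level. Testing covered 14970 genes that reached 10 in 3 or more samples, and all 32 genes described passed this filter. A gene was called at a Benjamini-Hochberg adjusted p below 0.1 over all genes tested and a log2 difference above 1. Because the deposited values are not counts, edgeR (4.0.16) and DESeq2 (1.42.0) were run on the recovered reads as alternatives. The methods were tested on simulated data. Positions, exon lengths and overlaps came from GENCODE M21, in which 37607 of the 37734 identifiers were found, and promoter windows from RefSeq. The named genes are the 32, the sorting genes Ccr7 and Esam, marker genes, and, for each list of other pathway genes and each maturation comparison, up to 3 called genes with the largest difference. A gene that this rule names is not reported here. The genes and lists were chosen with earlier results of these data known.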

Additional observations from a re-analysis of the deposited data

Results flagged for a closer look

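In SP1Minus and TH1Minus, the groups with 4 samples, the highest or lowest sample lay farther from the others than Dixon's 95% limit in 8 of 64 sets of 4 values (32 genes in 2 groups), where chance gives about 1 in 20. SP1Minus replicate 3 was high for Tfeb (1597), Gaa (1694) and Psap (314088), and SP1Minus replicate 1 for Atp6ap2 (4190). TH1Minus replicate 4 was high for Atp6v1h (2280) and low for Tfe3 (1174) and Gaa (538), and TH1Minus replicate 2 was low for Lamp3 (3.33).

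The effect of maturation differed between cDC2 and cDC1 in limma for Atp6v0a1 (-1.43), Lamp1 (-2.12), Lamp2 (-1.11), Mitf (-1.01), Hexa (1.09) and Psap (1.19), on the log2 scale and as cDC2 minus cDC1. The effect of tissue differed for Lamp1 (1.18), Mcoln2 (3.13) and Mitf (1.35).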

How the results depend on the processing

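Of 59 differences called among the 32 genes, 19 were lost in at least 1 alternative and 0 changed sign, nor did any of the other 28 named differences. With no fold limit, the genes called were 22 and 18 for maturation in cDC1 and cDC2, 6 and 16 for tissue, 16, 17 and 10 for subset in spleen, immature and mature thymus, and 10 for the difference of maturation effects. The share of all genes tested under that rule was not computed, so these counts have no background to be read against. When every sample had to reach 10, which removes low genes, 1 gene was called for tissue in cDC1 and 3 for subset in mature thymus. Leaving out 1 sample gave 3 to 9 genes for the difference of maturation effects. In lane 8 alone, with fewer samples, 0 genes were called by limma for the difference of tissue effects (5 at an unadjusted p under 0.05). DESeq2 and edgeR kept the count of each comparison within 1.5 times, although for tissue in cDC1 both called 2 genes lower in place of 1, with Gla added. The longer motif TCACGTG was found in 8 genes in place of 9.

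Some pool numbers were shared by cDC1 and cDC2 of the same tissue. The same-number correlations were -0.03, 0.33 and 0.45 in spleen and -0.11, 0.21 and 0.15 in immature thymus. Those between different numbers ran from -0.49 to 0.32 in spleen and from -0.38 to 0.27 in immature thymus. With so few numbers, whether the number pairs the samples could not be decided, and the main fit treated them as unpaired. TH1Plus replicate 1 also shared number 8 with TH1Minus replicates 3 and 4, and replicate 3 of TH1Plus shared number 569 with replicate 3 of TH2Plus. These were fitted as unpaired too, and no correlation was computed for them. With the number as a block, 7 genes were called in spleen and 9 in immature thymus, against 6 and 9 without the block in the same libraries. The fewest reads were behind Atp6v0d2 (0 to 93 per library), Mcoln2 (0 to 289) and Lamp3 (4 to 286).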
